A study of Homo sapiens with 15 samples.

Results

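The genes described here are 10 human genes known for the uptake, intracellular handling and export of cisplatin: the copper transporters SLC31A1 and SLC31A2, the copper chaperone ATOX1, the copper-pumping ATPases ATP7A and ATP7B, and the multidrug resistance proteins ABCC1, ABCC2, ABCC3, ABCC4 and ABCC5. They were chosen by name. Their probes were the non-control array probes whose accession is a RefSeq transcript of 1 of these genes, which gave 17 probes among 42405, with several probes for 4 genes and 1 probe for each of the other 6. On the whole array 19483 genes were matched in the same way.

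Transcript levels were compared between 2 groups of untreated PE/CA-PJ41 cells, an immortalised line from a human oral squamous cell carcinoma. Both groups were grown in supplemented RPMI medium for 24 hours before RNA extraction, and no sample had been exposed to cisplatin. The CYGB+ group carried the human cytoglobin cDNA in the plasmid pCMV6-Neo, and stable clones were selected with G418. The study's methods name the arrayed cells as LST421, so that the CYGB+ group is 1 clone. The NCE group carried an empty vector per the labels, although the study elsewhere calls its controls untransfected. Each group held 3 biological replicates. NCE was measured on 9 arrays and CYGB+ on 6. The labels do not say whether replicates were separate cultures, only that RNA was extracted on separate occasions, so p-values cover the spread between these extractions.

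Cisplatin is a platinum drug that enters cells partly by routes that normally carry copper. SLC31A1, also called CTR1, is the high-affinity copper importer of the plasma membrane. ATOX1 hands copper from the cytosol to ATP7A and ATP7B, which pump it into the secretory pathway or out of the cell, and these proteins also bind platinum. The ABCC proteins, also called MRPs, use ATP to export organic anions, among them glutathione conjugates, and platinum bound to glutathione is a known cargo of ABCC2.

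Promoter sequences are shown for 3 of the 10 genes, ABCC5, ATOX1 and ABCC4, to give the DNA upstream of 1 gene with a called probe, 1 whose call turned on a single array, and the only gene with an antioxidant response element core. RefSeq windows of the 250 bases before a transcription start were at hand for 7 of the 10 genes, in 9 windows on GRCh38.p14, and none for SLC31A2, ABCC1 or ABCC3. Each is written 5′ to 3′ on the gene's own strand, the minus strand in all 3. Capitals mark matches on either strand to the antioxidant response element core TGACNNNGC or the metal response element core TGCNCNC.
ABCC5, chr3:184017885-184018134: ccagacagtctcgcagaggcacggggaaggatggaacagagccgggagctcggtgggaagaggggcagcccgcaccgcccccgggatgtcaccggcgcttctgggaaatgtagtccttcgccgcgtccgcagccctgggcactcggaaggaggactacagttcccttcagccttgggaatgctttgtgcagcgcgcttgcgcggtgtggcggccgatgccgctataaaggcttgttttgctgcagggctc
ATOX1, chr5:151758632-151758881: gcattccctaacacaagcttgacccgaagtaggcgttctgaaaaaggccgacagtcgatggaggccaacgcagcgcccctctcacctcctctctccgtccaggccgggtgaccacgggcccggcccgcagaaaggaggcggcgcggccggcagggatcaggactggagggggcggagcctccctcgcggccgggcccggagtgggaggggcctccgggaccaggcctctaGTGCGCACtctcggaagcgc
ABCC4, chr13:95301452-95301701: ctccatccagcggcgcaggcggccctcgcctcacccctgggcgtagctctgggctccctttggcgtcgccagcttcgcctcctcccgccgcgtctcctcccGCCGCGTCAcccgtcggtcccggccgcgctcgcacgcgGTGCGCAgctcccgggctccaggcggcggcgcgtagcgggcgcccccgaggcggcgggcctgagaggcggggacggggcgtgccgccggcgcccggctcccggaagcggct
The ABCC5 window held neither core. The ATOX1 window held 2 overlapping matches to the metal response core, 1 on each strand, and none to the antioxidant core. The ABCC4 window held 1 match to each. Over 35116 RefSeq windows of this length the antioxidant core occurred in 10.9% and the metal core in 49.1%, so that a metal core match is common. A match describes letters and not a bound site.

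Several facts of the arrays bear on all values. The microarray is a 2-colour Agilent design used here as 1-colour, reading the green (Cy3) channel that the labels give for every sample, with signals given as log2 of the quantile-normalised intensity. The study's methods instead assign cyanine 5 to the control cells and cyanine 3 to the cytoglobin cells, so the direction of every difference rests on the labels. From 53.8% to 61.3% of spots were well above background. Slide 1 held 8 NCE arrays. Slide 2 held 1 NCE array, of replicate 1, and all 6 CYGB+ arrays. The scan followed the slide, so that group and slide can be told apart only through that 1 array. That array had a median Spearman correlation of 0.926 to the other NCE arrays and 0.942 to the CYGB+ arrays. Its median absolute shift from the slide 1 arrays of the same replicate was 0.256 over all probes. The median absolute difference between groups was 0.255. The first array of CYGB+ replicate 1 stood apart, with a median Spearman correlation of 0.885 to its own group against 0.926 to 0.958 for the other 14 arrays. The probe for CYGB, the transfected gene, gave 12.87, 13.16 and 12.94 in NCE replicates 1 to 3 and 12.37, 13.45 and 13.00 in CYGB+ replicates 1 to 3. The groups overlapped, and the difference was -0.05 ± 0.28 (SE, limma adjusted p = 0.94). The study uses NCE for cells that do not express cytoglobin, yet this probe was well above background on all 9 NCE arrays. The reason was not tested. Whether this probe lies in the transfected cDNA is not given in the sources used here. It therefore does not check the labels, and directions below are those of the cells labelled CYGB+.

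Of the 17 probes, 2 rose in the cells labelled CYGB+ and none fell (limma, adjusted p under 0.05 over all probes), 1 each for ABCC3 and ABCC5. That is 11.8% of the probes, beside 2.91% called among all 42405, of which 1.5% were higher and 1.41% lower. By the brightest probe of each gene, 1 of 10 genes was called. The ABCC3 and ABCC5 probes that read another RefSeq transcript than the called probe were not called in this fit (limma adjusted p = 0.095 and 0.55). The median difference over the 17 probes was 0.17 on the log2 scale, beside -0.01 over all probes. That median was 0.044 without NCE replicate 1, 0.066 without CYGB+ replicate 2 and 0.043 with normexp background correction. The normexp setting adds an offset of 50 to the signal, which draws log2 differences of dim probes toward 0. The median was larger without NCE replicate 3 (0.241), with slide as a covariate (0.253) and on slide 2 alone (0.298). The groups did not overlap for 5 probes, or 29.4%, beside 28.8% of all probes, so that the share of separated probes was near the background. With the replicate number as a block the calls fell to 0 of 17, beside 14 of all probes (0.033%).

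**Figure D1:**
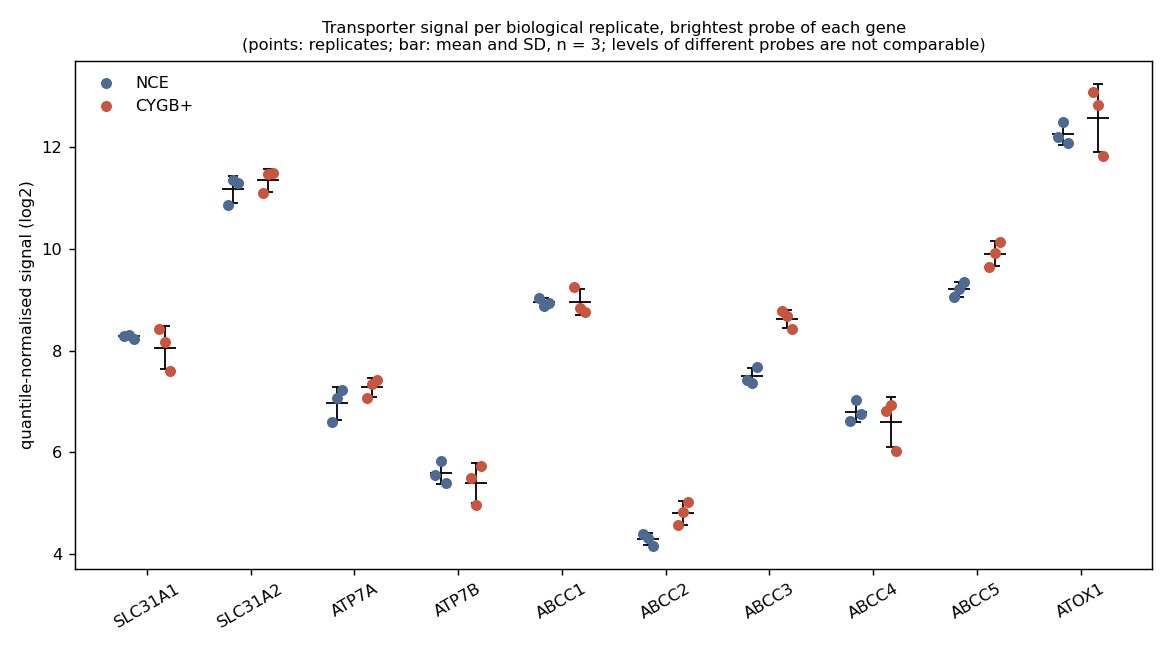
Quantile-normalised log2 signal (vertical axis) of the brightest probe of each of the 10 genes (horizontal axis) in NCE (blue) and CYGB+ (red). Points are biological replicates and bars their mean and SD (n = 3). The 3 CYGB+ replicates of ABCC3 lie between 8.42 and 8.77, above the NCE replicates at 7.37 to 7.69.

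**Figure D2:**
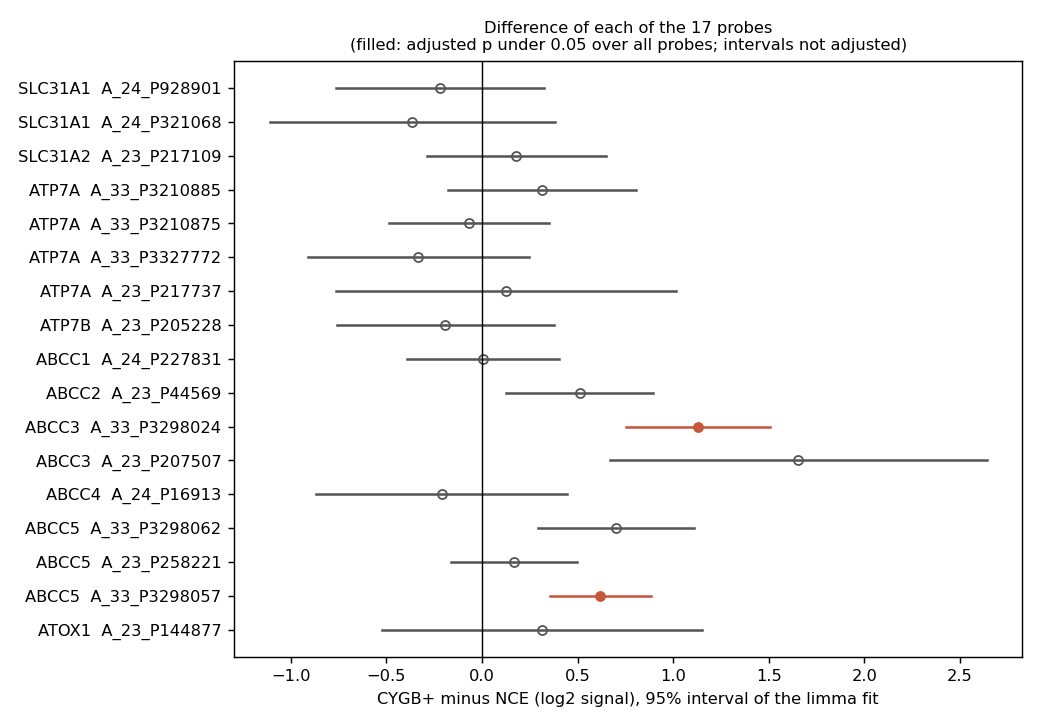
Difference in log2 signal, CYGB+ minus NCE (horizontal axis), for each of the 17 probes (vertical axis), with the 95% interval of the limma fit. Filled points passed the adjusted threshold, namely ABCC3 at 1.13 (A_33_P3298024) and ABCC5 at 0.62 (A_33_P3298057). The intervals of SLC31A1, SLC31A2, ATP7A, ATP7B, ABCC1, ABCC4 and ATOX1 include 0, as does that of ABCC5 A_23_P258221. Those of ABCC2, ABCC3 A_23_P207507 and ABCC5 A_33_P3298062 exclude 0, but these probes did not pass.

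For uptake, the SLC31A1 probes gave no call. The brighter probe (A_24_P928901, NM_001859) read 8.30, 8.32 and 8.23 in NCE replicates 1 to 3. In CYGB+ replicates 1 to 3 it read 7.60, 8.42 and 8.16. NCE was tight and CYGB+ wide, with replicate 1 below every other value, and its first array, the one that stands apart, read 7.17 against 8.02 for its repeat. The difference was -0.22 ± 0.22 (SE, adjusted p = 0.63), with a 95% interval of -0.77 to 0.32. The second probe of the gene gave -0.37 ± 0.31 (adjusted p = 0.56). Without CYGB+ replicate 1 the first probe's difference was 0.01.

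SLC31A2, or CTR2, is the related low-affinity copper transporter found mainly on internal membranes. Its probe read 10.87, 11.36 and 11.30 in NCE and 11.49, 11.10 and 11.48 in CYGB+. These ranges overlapped, and the difference was 0.18 ± 0.19 (SE, adjusted p = 0.65).

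ATOX1, the copper chaperone, read 12.21, 12.51 and 12.10 in NCE replicates and 11.83, 13.08 and 12.84 in CYGB+ replicates. CYGB+ replicates 2 and 3 were above every NCE replicate, and CYGB+ replicate 1 was below them all. Its difference was 0.32 ± 0.34 (SE, limma adjusted p = 0.65). In CYGB+ replicate 1 the array that stands apart read 10.72 and its repeat 12.94, beside 12.49 to 13.20 over the other 5 CYGB+ arrays. Without that array the difference was 0.69 ± 0.14 (adjusted p = 0.049), a setting chosen after seeing the data. The NCE arrays also held a low value, 11.38 on the second array of replicate 3, and the NCE array on slide 2 read 11.83, which was 0.56 lower than the slide 1 arrays of the same replicate. On slide 2 alone, which leaves 1 NCE array, the difference was 0.76.

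For the copper ATPases, ATP7A had 4 probes, all of NM_000052, whose differences did not share a sign. The brightest (A_33_P3210885) read 6.60, 7.07 and 7.23 in NCE and 7.42, 7.07 and 7.34 in CYGB+, a difference of 0.31 ± 0.20 (SE, adjusted p = 0.46). The other 3 gave differences of -0.07, -0.33 and 0.13, with adjusted p from 0.50 to 0.87. None of the 4 passed the test. The last of them (A_23_P217737) was well above background on 3 of 9 NCE and 3 of 6 CYGB+ arrays. The probe with -0.33 (A_33_P3327772) was above background on 4 of 6 CYGB+ arrays and differed by 2.43 between the arrays of CYGB+ replicate 3. With slide as a covariate both negative differences turned positive, at 0.25 and 0.18.

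ATP7B is the second copper ATPase, best known from liver. Its probe read 5.55, 5.83 and 5.40 in NCE and 5.74, 5.50 and 4.97 in CYGB+. The difference of -0.19 ± 0.23 (SE, adjusted p = 0.68) lay within the spread of the replicates. A single array, the second of NCE replicate 3, carried an outlier-flagged spot for this gene, which was left out.

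Among the ABCC exporters, ABCC3 showed the larger of the called differences. ABCC3, or MRP3, exports conjugated organic anions such as glucuronides. Its brighter probe (A_33_P3298024, NM_001144070) read 7.42, 7.37 and 7.69 in NCE replicates 1 to 3. In CYGB+ replicates 1 to 3 it read 8.42, 8.77 and 8.67. Every replicate labelled CYGB+ was above every NCE replicate. The difference was 1.13 ± 0.15 (SE, n = 3 against 3, limma adjusted p = 0.028), or 2.19-fold, with a 95% interval of 0.75 to 1.51. With the replicate block it did not pass (adjusted p = 0.078).

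The second ABCC3 probe (A_23_P207507, NM_003786) read 6.06, 5.72 and 7.04 in NCE and 7.39, 8.29 and 8.08 in CYGB+. The groups again did not overlap, but NCE replicate 3 stood above the other NCE replicates on all 3 of its arrays, at 6.94 to 7.12. The difference of 1.65 ± 0.40 (SE, 3.15-fold) did not pass (adjusted p = 0.095). Without the array that stands apart, which read 6.81 here against 7.98 for its repeat, it was 1.85 (adjusted p = 0.040). The differences given by the ABCC3 probes were 0.52 apart, and 3 against 3 replicates cannot take an exact permutation test of that gap below p = 0.10 (two-sided p = 0.20, adjusted 0.33 over the 5 probe pairs compared).

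The slide bore on the ABCC3 values. For the first probe the single NCE array on slide 2 read 7.21, which was 0.32 lower than the slide 1 arrays of the same replicate and below all 6 CYGB+ arrays of that slide (8.10 to 8.93). With slide as a covariate, fitted on single arrays rather than replicates, the difference was 1.41 ± 0.32 (limma adjusted p = 0.031). On slide 2 alone, which leaves 1 NCE array, it was 1.41. The difference was positive under all 17 alternatives, from 0.81 (normexp) to 1.52, and called under 7 of them. These alternatives reuse the same arrays, and the filter, the replicate block and the methods' t-test leave the difference itself unchanged. A shared sign is therefore no independent support. The call held without CYGB+ replicate 1 (adjusted p = 0.045), and did not without any other replicate (0.074 to 0.110) or with 75th percentile scaling (0.053).

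ABCC5, or MRP5, exports cyclic nucleotides and nucleotide analogues. Its 3 probes fell into a pair that read NM_001023587 and 1 that read NM_005688. The brightest of them (A_33_P3298062, NM_001023587) gave 9.06, 9.22 and 9.35 in NCE and 10.15, 9.65 and 9.93 in CYGB+. The groups did not overlap, and the difference of 0.70 ± 0.17 (SE, 1.62-fold) did not pass (adjusted p = 0.091). The dimmer probe of the same transcript (A_33_P3298057) gave 5.99, 6.09 and 6.11 in NCE and 6.61, 6.70 and 6.73 in CYGB+. Here both groups were tight and separate. The difference was 0.62 ± 0.11 (SE, n = 3 against 3, limma adjusted p = 0.047), or 1.54-fold.

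The difference at this ABCC5 probe was positive under all 16 alternatives that gave a value, which again reuse the same arrays. It ran from 0.29 (normexp) to 0.66, and was called under 4 of them. It passed with normexp (adjusted p = 0.029), the filter on dim probes (0.031), the methods' t-test (0.049) and without the array that stands apart (0.041). It did not pass with the replicate block (adjusted p = 0.109), with slide as a covariate (0.39 ± 0.16, adjusted p = 0.38) or on slide 2 alone (0.42, adjusted p = 0.54), nor with any 1 replicate left out (adjusted p from 0.067 to 0.149) or with 75th percentile scaling (0.226). The NCE array on slide 2 read 6.26 for this probe, 0.41 higher than the slide 1 arrays of the same replicate.

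The third ABCC5 probe (A_23_P258221, NM_005688) read 9.15, 9.28 and 9.44 in NCE and 9.46, 9.33 and 9.58 in CYGB+. These ranges overlapped, with a difference of 0.17 ± 0.13 (SE, adjusted p = 0.55). The log2 signal of A_33_P3298062 minus that of A_23_P258221 was -0.09, -0.06 and -0.09 in NCE replicates and 0.69, 0.32 and 0.35 in CYGB+ replicates. The change between groups was 0.53, with no overlap (exact permutation test, two-sided p = 0.10, the smallest that 3 against 3 replicates allow, and adjusted p = 0.25 over 5 pairs). The pair was looked at after its values were seen.

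**Figure D3:**
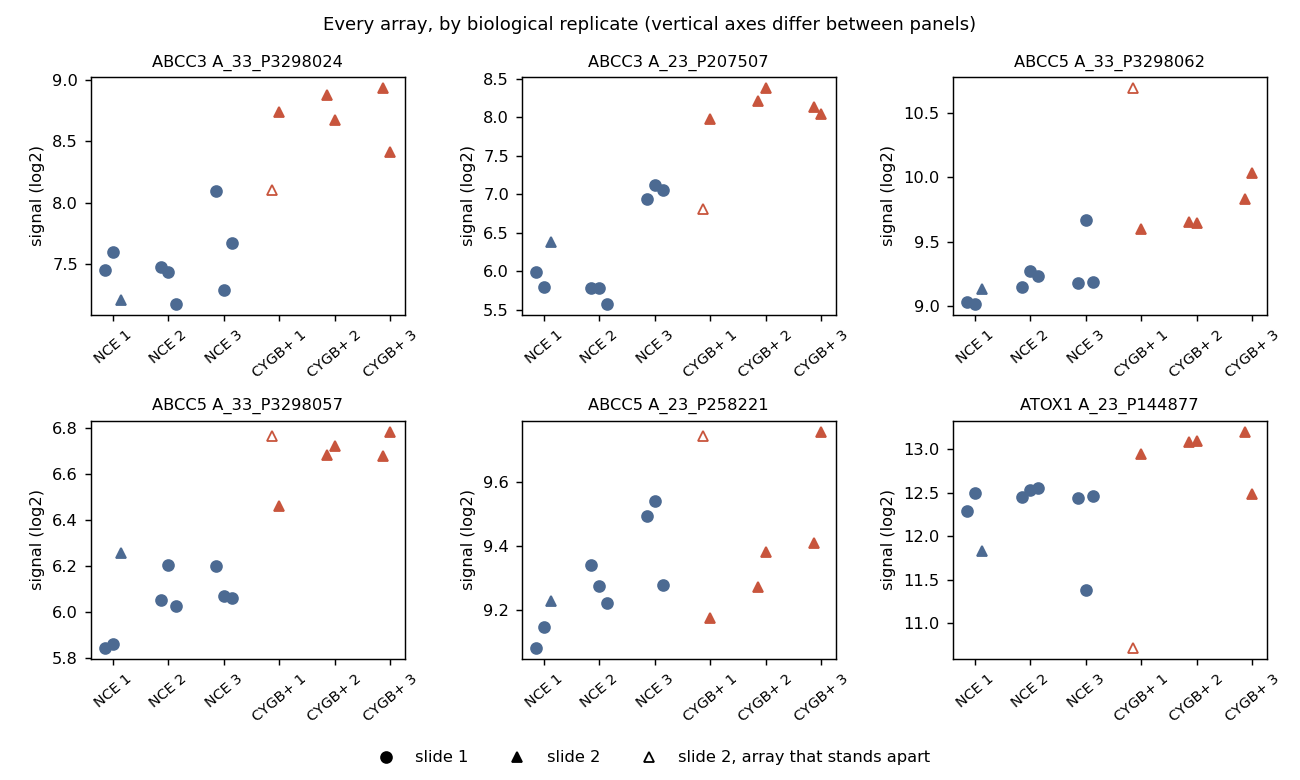
Log2 signal (vertical axis, a different range in each panel) on each array, by biological replicate (horizontal axis), for the ABCC3, ABCC5 and ATOX1 probes. Circles are slide 1, triangles slide 2, and the open triangle the array that stands apart, which reads 10.72 for ATOX1 while its repeat reads 12.94.

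ABCC2, or MRP2, is the exporter of the canalicular membrane of liver cells and carries glutathione-bound platinum. Its signal was near background, above it on 2 of 9 NCE and 5 of 6 CYGB+ arrays. The probe read 4.40, 4.31 and 4.16 in NCE and 5.02, 4.56 and 4.82 in CYGB+. The groups did not overlap, and the difference of 0.51 ± 0.16 (SE, adjusted p = 0.15) did not pass. It was 0.03 with normexp background correction, whose offset draws differences of a probe this dim toward 0. The arrays of NCE replicate 1 alone spanned 2.04 on the log2 scale, more than the difference between groups.

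ABCC1, or MRP1, the broad exporter of glutathione conjugates, gave the smallest difference of the 17 probes. It read 9.03, 8.89 and 8.94 in NCE and 8.77, 9.26 and 8.84 in CYGB+. The difference was 0.00 ± 0.16 (SE, adjusted p = 0.99), and its 95% interval of -0.39 to 0.40 leaves room for changes of that size.

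ABCC4, or MRP4, exports cyclic nucleotides and prostaglandins. It read 6.62, 7.02 and 6.76 in NCE and 6.03, 6.81 and 6.93 in CYGB+, a difference of -0.21 ± 0.27 (SE, adjusted p = 0.70). The low CYGB+ value was that of replicate 1, whose array that stands apart read 5.44 against 6.61 for its repeat. Without CYGB+ replicate 1 the difference was 0.07.

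**Figure D4:**
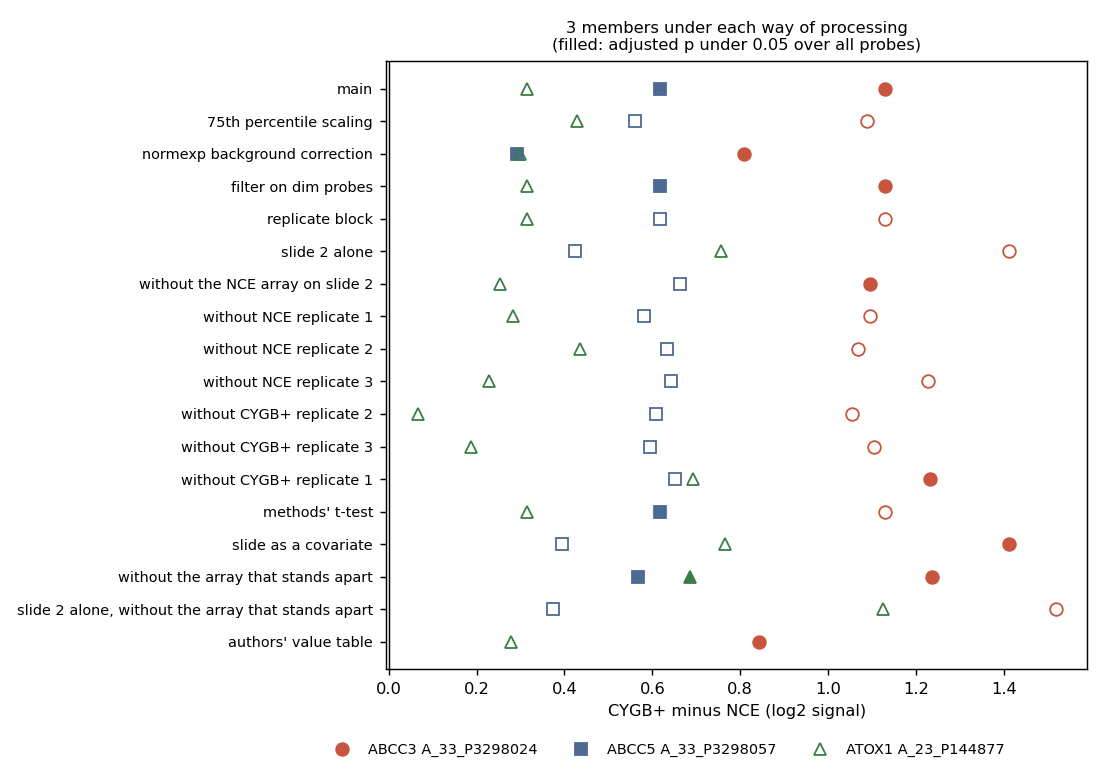
Difference in log2 signal, CYGB+ minus NCE (horizontal axis), for the probes ABCC3 A_33_P3298024, ABCC5 A_33_P3298057 and ATOX1 A_23_P144877 under each way of processing (vertical axis). Filled symbols passed adjusted p under 0.05 over all probes. ABCC3 stays between 0.81 and 1.52, ABCC5 between 0.29 and 0.66, and ATOX1 between 0.07 and 1.13.

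Genes that work beside these transporters were read in 4 lists. Of 18 copper-handling genes (25 probes), 1 probe fell and none rose. The one called was SOD1, the copper-zinc superoxide dismutase, which read 15.39, 15.43 and 15.48 in NCE and 14.73, 14.84 and 14.76 in CYGB+. Its difference was -0.66 ± 0.11 (SE, limma adjusted p = 0.038, and 0.105 with the replicate block). It did not pass with 75th percentile scaling (-0.45, adjusted p = 0.31) or with any 1 replicate left out (0.067 to 0.137). SOD1 was called under 6 of 17 alternatives, among them slide as a covariate, fitted on single arrays rather than replicates (-0.57, limma adjusted p = 0.026). The median over the 25 probes was -0.16, and it was -0.26 without NCE replicate 1 and also without CYGB+ replicate 3, -0.27 with the filter on dim probes, -0.28 with 75th percentile scaling and -0.07 with normexp. Of the 25 probes, 8 had an unadjusted p under 0.05, beside 19.5% of all 42405 probes.

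Of 7 glutathione-supply genes (8 probes, GGT1 having no matched probe), 1 rose and none fell in the limma fit. The direction of the calls varied with the processing: the methods' t-test called 1 lower and none higher, normexp 1 higher and 2 lower, and the fit without the array that stands apart 2 higher and 2 lower. SLC3A2, the heavy chain of the cystine transporter that feeds glutathione synthesis, read 11.96, 12.23 and 12.01 in NCE and 13.10, 12.84 and 13.20 in CYGB+. Its difference was 0.98 ± 0.15 (SE, 1.97-fold, limma adjusted p = 0.033, and 0.100 with the replicate block). SLC3A2 did not pass with any 1 replicate left out (0.061 to 0.126). It was called under 6 of 17 alternatives, among them slide as a covariate, fitted on single arrays rather than replicates (1.11, limma adjusted p = 0.0043). The list's median was -0.37, opposite in sign to SLC3A2, but 0.24 with slide as a covariate and 0.20 on slide 2 alone. Of its 8 probes, 7 had an unadjusted p under 0.05. Among 12 genes of other platinum and cation routes (16 probes), limma called none, with 5 probes at an unadjusted p under 0.05. The methods' t-test also called none. In this list normexp called 1 lower, the filter on dim probes 1 higher, and the fit without the array that stands apart 1 higher. Among 7 other drug-exporting ABC genes (12 probes) neither limma nor the methods' t-test called any, and limma gave 1 probe at an unadjusted p under 0.05. ABCB1, the classical multidrug pump P-glycoprotein, was not well above background on any array.

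The labelled cell type was checked against its markers, and all 11 probes of 10 squamous epithelial genes were well above background on every array. Among markers of other cells, COL1A2, a fibrillar collagen chain and here a fibroblast marker, was well above background on all arrays and lower in the cells labelled CYGB+, with a difference of -2.54 ± 0.21 (SE, limma adjusted p = 0.011, and 0.065 with the replicate block), while LUM and PDGFRB were not above background on any array and the DCN probes on at most 1 array of a group. COL1A1, the other fibrillar collagen chain of the list, was above background on 7 of 9 NCE and 6 of 6 CYGB+ arrays and gave 0.23 ± 0.42 (adjusted p = 0.79). The COL1A2 call was lost without NCE replicate 1, 2 or 3 or CYGB+ replicate 3 (adjusted p from 0.051 to 0.071). Summed over the 6 fibroblast probes, the log2 signal ranged from 8.63 to 8.94 in NCE and from 6.87 to 7.36 in CYGB+, but COL1A2 was the only 1 of the 6 called and the list's median difference was 0.01. Its part in the ABCC3 and ABCC5 results was not tested. CD14 and PMEL were also above background on all arrays, and neither passed the test. CDH5, an endothelial marker, was above background on 8 of 9 NCE and 6 of 6 CYGB+ arrays and did not pass either. Probes of PTPRC, CD3E, PECAM1 and MLANA were above background on at most 3 arrays of a group. In bulk RNA, fewer cells of a kind and less RNA per cell cannot be told apart.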

How the data were processed

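The genes and lists were chosen with earlier results of these data known. RNA was hybridised to Agilent SurePrint G3 arrays. The deposited intensity values are per-spot signals that the authors' scanner software (Feature Extraction 10.7.3.1 per the file headers, grid build hg19) had background-subtracted and dye-normalised. The deposited value table holds log2 values of 15040 probes, centred near 0 in the CYGB+ group. Its scale is compressed (slope 0.63 against the scanner values), how it was made is not given in the sources used here, and it served as an alternative only.

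Here the log2 of the green processed signal was quantile-normalised over 15 arrays, outlier-flagged spots were left out, spots were averaged per probe and arrays per biological replicate. An outlier-flagged spot was left out for ABCC5 (A_23_P258221) on the first array of NCE replicate 1 and for ATP7B on the second array of NCE replicate 3. limma 3.58.1 (R 4.3.3) compared 3 with 3 replicates without covariates, with Benjamini-Hochberg adjustment over 42405 probes and no filter on dim probes. Of 27310 probes with a RefSeq accession, 25422 were named. A gene's value is that of its probe with the highest mean signal. Every gene of interest was named. From the related lists, those called with a difference over 1.5-fold were named, at most 4 per list, with CYGB first and markers as needed. The number of arrays limits the precision.

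Replicates with the same number deviated together between groups (r = 0.118, 0.156 and 0.194), which meets the criterion for pairing, although shifting the numbers by 1 gave nearly the same for 1 assignment (r = 0.115, 0.104 and 0.098). Blocked values are therefore given where they change a call. Where normexp was used, the median signal (offset 50) stood in for the mean signal, which was not used here. Alternatives were 75th percentile scaling, normexp, a filter on dim probes, the replicate block, slide as a covariate or slide 2 alone, leaving out arrays or replicates, the methods' t-test and the value table. Scripts were tested on simulated data. Promoters came from RefSeq (GRCh38.p14).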

Additional observations from a re-analysis of the deposited data

Results flagged for a closer look

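Array by array, single arrays lay far from the rest of their group in 7 of 36 tests (18 probes, CYGB included, in 2 groups), where chance gives about 1 in 20. The arrays are repeats of 3 replicates and are not independent. The array that stands apart, the first of CYGB+ replicate 1, accounted for 4 of the 7. It read 7.17 for SLC31A1 (A_24_P928901, other arrays 8.02 to 8.46), 6.81 for ABCC3 (A_23_P207507, others 7.98 to 8.38), 5.44 for ABCC4 (others 6.61 to 7.14) and 10.72 for ATOX1 (others 12.49 to 13.20). The second array of CYGB+ replicate 1 read 6.46 for ABCC5 (A_33_P3298057, others 6.68 to 6.78). The second array of NCE replicate 3 read 8.01 for SLC31A1 (A_24_P928901, others 8.26 to 8.37) and 9.67 for ABCC5 (A_33_P3298062, others 9.02 to 9.27).

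The red channel, which no label describes, also carried signal: 14 of the 17 probes were well above background there on all 15 arrays.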

How the results depend on the processing

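The called probes were few and depended on the processing. Member calls (2 of 17) became 0 with 75th percentile scaling, the replicate block and slide 2 alone (also without the array that stands apart), 1 without the NCE array on slide 2, with the methods' t-test, slide as a covariate and the authors' value table, 4 with the filter on dim probes and 4 without the array that stands apart. They were 0 to 1 when a replicate was left out. The filter kept 15 member probes and 42 probes of the related lists, and called 2312 of the 19763 probes it tested. The authors' value table held 9 member probes, and 1444 of its 15031 matched probes were called. The block changed no other call among the members. Calls in the 4 related lists (2) became 0 with 75th percentile scaling, the replicate block and slide 2 alone (with or without the array that stands apart), 6 with normexp, 4 with the filter and 7 without that array, and 0 when any replicate was left out. All calls (1232) became 738 with 75th percentile scaling, 2055 with normexp, 2312 with the filter, 14 with the replicate block, 282 with the methods' t-test, 2775 without the array that stands apart, and 0 on slide 2 alone with or without that array (4405 and 7223 probes at an unadjusted p under 0.05), and ran from 22 to 522 when a replicate was left out. With slide as a covariate 321 were higher and 726 lower, against 635 and 597. The 75th percentile scaling moved the median of all probes to -0.14. Settings without the array that stands apart were chosen after seeing the data. The cause of these changes was not tested.

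Signs turned for uncalled values. With slide 2 alone ATP7A read 0.30 (A_33_P3210875) and 0.20 (A_33_P3327772), with slide as a covariate 0.25 and 0.18, and on slide 2 without the array that stands apart 0.13 and 0.46, where SLC31A1 (A_24_P321068) read 0.11. ABCC1 read -0.020 with 75th percentile scaling, -0.051 with normexp, -0.016 without the NCE array on slide 2 and -0.033 in the authors' value table. CYGB read 0.081 and 0.032 with 75th percentile scaling and the authors' value table. With a replicate left out, ranges were -0.40 to 0.011 for SLC31A1 (A_24_P928901), -0.20 to 0.034 and -0.15 to 0.49 for ATP7A (A_33_P3210875 and A_23_P217737), -0.36 to 0.023 for ATP7B, -0.15 to 0.10 for ABCC1, -0.38 to 0.070 for ABCC4 and -0.30 to 0.24 for CYGB.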

Other observations

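In the red channel, log2 signal relative to each array's 75th percentile was read for ABCC3 (A_33_P3298024). It was -0.45, -0.18 and -0.38 on the first arrays of NCE replicates 1 to 3 and between -1.92 and -1.40 on the other 6 NCE arrays. On the 6 CYGB+ arrays it lay between -1.12 and 0.01. No label says which RNA this channel held, so no group was compared.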
